A study of Mus musculus with 9 samples.

Results

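The matrix metalloproteases (Mmp), the ADAM and ADAMTS proteases and their tissue inhibitors (Timp) were followed in cultured mouse cortical neurons under 2 kinds of stimulation. Members were all array genes whose RefSeq transcript carries a mouse symbol made of 1 of these 4 prefixes and a number. The array held 70 such genes on 107 probes, and the 45 genes with a probe that exceeded background clearly, by the scanner software's flag, on all 3 arrays of some group were kept, of 14057 genes tested on the same rule. They comprised 10 of 21 Mmp, 15 of 28 Adam, 16 of 17 Adamts and 4 of 4 Timp genes. The cells came from the cortex of C57BL/6 embryos at embryonic day 15 and had spent 12 days in culture. Group KCl received 50 mM potassium chloride for 6 h, which depolarises the membrane. Group Bic received 25 µM bicuculline for 6 h, which blocks GABA-A receptors and so releases network firing. The control group was untreated. Each group had 3 arrays, and nothing in the labels says that these came from separate cultures, so p-values measure only how far these arrays differ, and that spread may be technical.

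As background, all 4 families act around zinc-dependent cleavage outside the cell or at its surface. Mmp enzymes degrade matrix and process membrane proteins, membrane-anchored Adam enzymes release the outer domains of other membrane proteins, and the secreted Adamts enzymes cleave proteoglycans, procollagens and other matrix proteins. Timp proteins bind the active site and block it. In the cortex, aggrecan and the other chondroitin sulphate proteoglycans of the perineuronal net are among the substrates of Adamts enzymes, and several Mmp and Adam enzymes act at synapses. The enzymes are made as inactive precursors, so a transcript level does not give an activity.

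A level below is the log2 of a probe's signal relative to the 75th percentile of its array, which ranged over 1586 to 3087 signal units; 65.0% to 75.9% of an array's non-control spots carried the flag and 0 were saturated. Levels compare arrays for 1 probe and not 1 gene with another. The stimuli registered in both groups: the immediate early gene Fos was higher by 4.47 log2 units in KCl and by 2.76 in Bic, Bdnf by 3.19 and 2.90, and Npas4 by 4.32 and 0.86, each against control. All 10 neuronal and all 10 astrocyte markers tested were well above background on every array. So were 8 of 9 microglial, 9 of 10 oligodendrocyte and 11 of 14 vascular and fibroblast markers with a probe. The others of these lists, Itgam, Mog, Pecam1, Cdh5 and Cldn5, were not kept as above background. The arrays lay on 3 slides. Slide 1 held the first 2 Bic and the first 2 control arrays, slide 2 held KCl 1, KCl 2, Bic 3 and control 3, and slide 3 held KCl 3.

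Most kept members changed in KCl, as did most genes on the array. Against control, KCl gave 21 of the 45 members a higher level and 12 a lower one at an adjusted p under 0.05, and 12 did not pass. The background was 35.8% of all genes tested called higher and 36% called lower, so the members' calls lay more to the higher side and were about as frequent as those of other genes. The members' median change was 0.24 log2 units, against 0.02 for all genes tested, and 4 members rose at least 2-fold (Adamts1, Adamts4, Mmp10 and Adam25, of which Mmp10 was well above background on 0 control arrays and Adam25 on 1) while 0 fell that far. On the 3 KCl arrays 10 of the 16 Adamts, 5 of the 15 Adam, 4 of the 10 Mmp and 2 of the 4 Timp genes rose, and 5, 6, 1 and 0 of them fell. In bulk RNA such as this, a change in the share of a cell type and a change in RNA per cell cannot be told apart.

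Fewer members passed in Bic. Against control, 9 of the 45 members were higher in Bic and 9 lower, and 27 did not pass, with backgrounds of 17.4% of all genes called higher and 27% called lower, close to the members' own shares of 20% each way. The median change was -0.04 log2 units for the members and -0.03 for all genes. By family, 4 Adamts, 3 Mmp and 2 Adam genes rose and 5 Adamts, 3 Adam and 1 Mmp gene fell, while 0 of 4 Timp genes passed. KCl set directly against Bic gave 23 members higher and 8 lower, where 36.1% of all genes were called higher and 28.8% lower; medians were 0.26 log2 units for the members and 0.07 for all genes. The comparisons with control share the same 3 control arrays. By their own calls, 7 members were higher in both (Adam9, Adam15, Adamts1, Adamts5, Adamts8, Adamts20 and Mmp10) and 7 lower in both (Adam1a, Adam12, Adamts3, Adamts16, Adamts18, Adamts19 and Mmp15), and 1, Adamts4, was higher in KCl and lower in Bic.

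How the arrays were put on a common scale bears on these counts. Scaling on each array's median moved the all-gene median of KCl against control to -0.14 and spike-in scaling moved it to -0.20, and the members' median moved with it to 0.08 and 0.02, so it stayed above that of all genes. The share of member calls that were higher in KCl was 63.6% here, 51.7% with median scaling and 39.1% with spike-in scaling. Over all genes that share was 49.9%, 31.8% and 25.9%. In Bic it was 39.1% of all calls here, 32.9% with median scaling, 49.8% with spike-in scaling and 58.9% after normexp background correction with the 75th percentile, and for KCl against Bic 55.6%, 33.9%, 19.7% and 45.1%. That normexp setting kept only 8 of the 33 member calls in KCl against control (Adam23, Adamts1, Adamts3, Adamts5, Adamts7, Adamts9, Mmp11 and Timp3), 1 of 18 in Bic against control (Adamts1) and 5 of 31 in KCl against Bic (Adam23, Adamts7, Adamts9, Mmp11 and Timp3). Of those, the KCl calls against control of Adam23, Adamts9 and Mmp11 were lost under median scaling (0.10, 0.083 and 0.11) and spike-in scaling (0.034, 0.017 and 0.044).

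**Figure D1:**
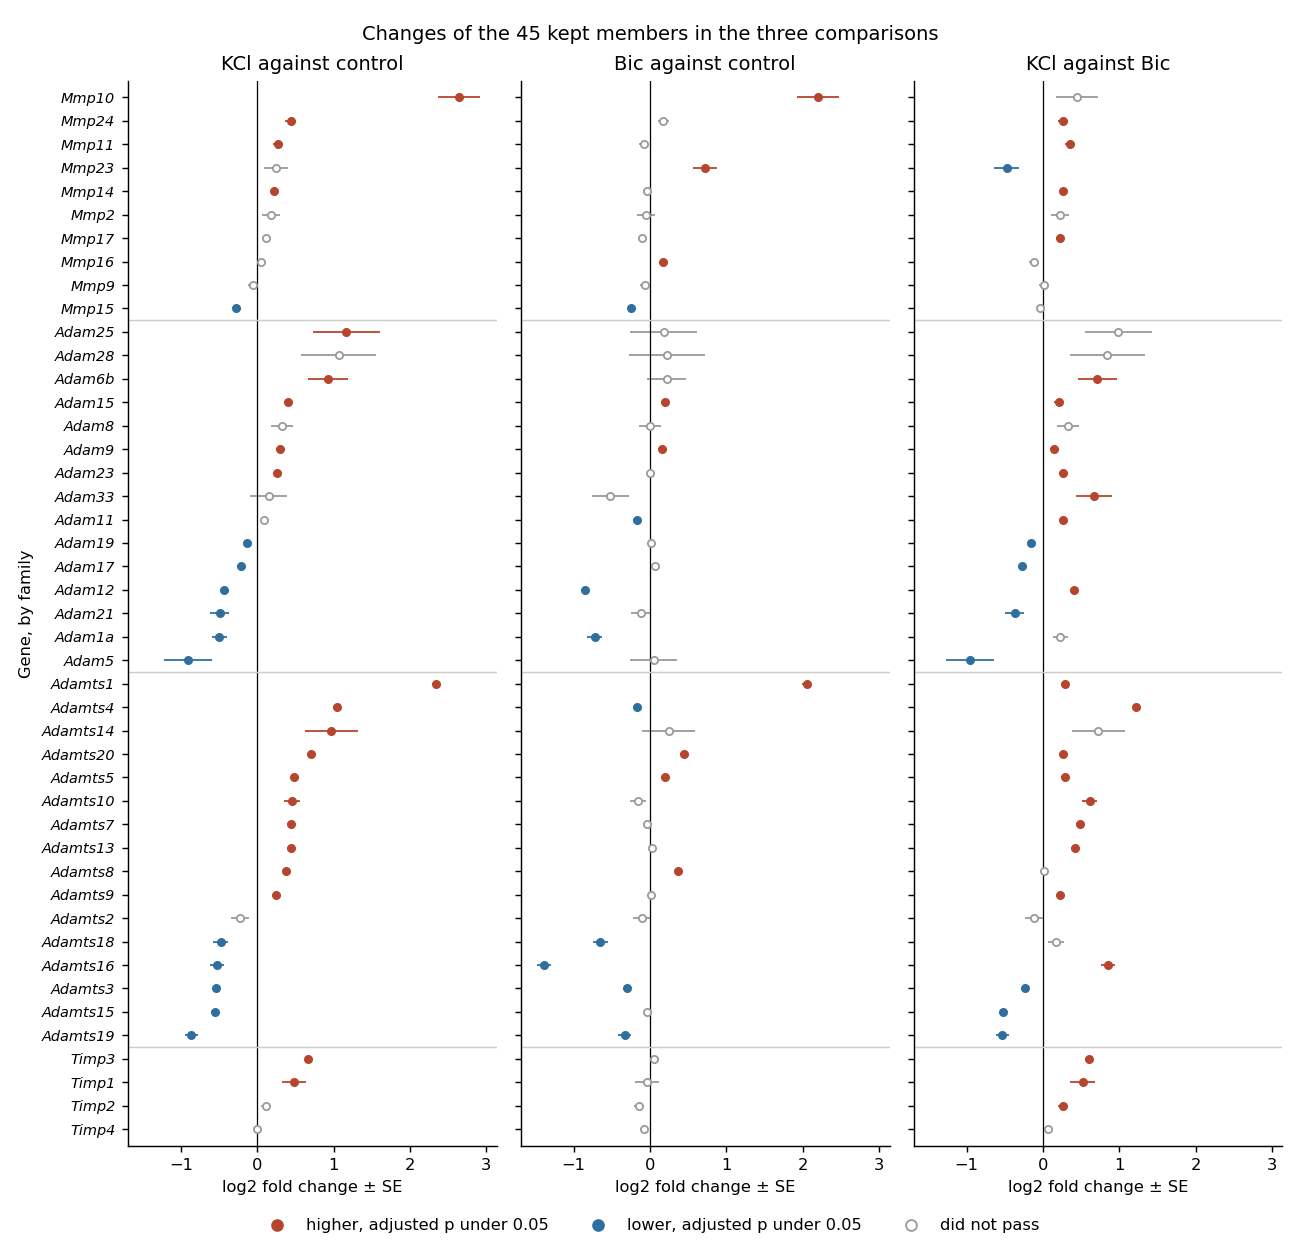
Log2 fold change with limma's standard error for each of the 45 kept members (y axis, by family, ordered by the change in KCl) in KCl against control, Bic against control and KCl against Bic; filled points passed an adjusted p of 0.05 (red higher, blue lower) and open points did not. Adamts1 and Mmp10 stand far to the right in both comparisons with control, and Adamts4 to the right only in the panels that hold KCl; the Mmp10 points are fitted values and its control arrays were not well above background.

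Adamts1, a secreted protease that cleaves aggrecan and versican, had the largest rise of any member that was well above background on every array. Its levels were 2.55, 2.73 and 2.71 on the KCl arrays, 2.42, 2.34 and 2.36 on the Bic arrays and 0.30, 0.39 and 0.28 on the control arrays. All 6 stimulated arrays lay about 2 log2 units above all control arrays, and KCl lay above Bic without overlap. That is 5.06-fold higher in KCl than in control (2.34 ± 0.06 log2 units, SE; adjusted p = 3.5e-08), 4.14-fold higher in Bic than in control (2.05 ± 0.06, adjusted p = 1.7e-07) and 1.22-fold higher in KCl than in Bic (0.29 ± 0.06, adjusted p = 0.0025). Its second probe gave changes of 2.69 in KCl and 2.09 in Bic. Both comparisons with control passed under every alternative run, and the step between KCl and Bic was lost under median scaling, spike-in scaling and normexp with the 75th percentile (0.17, 0.064 and 0.15).

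Mmp10, stromelysin-2, a secreted protease that cleaves matrix proteins and other Mmp precursors, was well above background on all KCl and all Bic arrays and on 0 of 3 control arrays. It measured -4.35, -4.32 and -4.69 in KCl, -4.94, -5.18 and -4.58 in Bic and -6.53, -7.63 and -7.14 in control, means of -4.46 ± 0.21, -4.90 ± 0.30 and -7.10 ± 0.55 (SD, n = 3 each). The stimulated arrays were all above the control arrays, and KCl and Bic overlapped. Control gives only a bound, taken per array as the higher of its dimmest signal well above background and the probe's own. On that bound Mmp10 was at least 3.26-fold higher in KCl and at least 2.4-fold higher in Bic. The adjusted p-values of 5.5e-05 and 4.2e-04 belong to limma's fitted changes of 2.64 and 2.20 log2 units, not to the bounds. Both calls were lost after normexp with the 75th percentile (adjusted p = 0.067 in KCl and 0.85 in Bic). Over the alternative runs the fitted changes went down to 0.33 in KCl and 0.28 in Bic, so the bounds hold only for the processing used here. Mmp10 was kept through the stimulated groups, in which it is high, so a rise was favoured by the choice of probes. The difference of 0.44 ± 0.28 log2 units between KCl and Bic did not pass (adjusted p = 0.19).

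The sequences upstream of the Mmp10 and Adamts1 start sites are shown because these genes had the largest rises in each stimulated group. Of the other members higher in both, Adam15 and Adamts20 had windows without a match. The sequences of Mmp14 and Mmp24 are shown as examples of windows that hold a motif match. Adamts14, Mmp11 and Adam19 also held a match and are not shown. Mmp14 and Mmp24 are among 13 members that passed as higher in KCl and did not pass in Bic. Of the 13, Adam23, Adam6b, Adam25, Adamts9, Adamts13, Timp1 and Timp3 had windows without a match. All sequences are RefSeq's, on build GRCm38.p6, 250 bases 5′ to 3′ on the gene's strand up to the base before the annotated start. Matches to the motifs searched are in capitals. Mmp10 lies at chr9:7502092-7502341 on the plus strand, Adamts1 at chr16:85803114-85803363 on the minus strand, Mmp14 at chr14:54431348-54431597 and Mmp24 at chr2:155775092-155775341 on the plus strand.
Mmp10: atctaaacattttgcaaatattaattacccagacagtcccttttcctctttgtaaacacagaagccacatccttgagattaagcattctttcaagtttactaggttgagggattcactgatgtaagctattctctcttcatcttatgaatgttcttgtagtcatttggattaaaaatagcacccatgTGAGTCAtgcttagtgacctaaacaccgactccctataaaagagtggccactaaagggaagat
Adamts1: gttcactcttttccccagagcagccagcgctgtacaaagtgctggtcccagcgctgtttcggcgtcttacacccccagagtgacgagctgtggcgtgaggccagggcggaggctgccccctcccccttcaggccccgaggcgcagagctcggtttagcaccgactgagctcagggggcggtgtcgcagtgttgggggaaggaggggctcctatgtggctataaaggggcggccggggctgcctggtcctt
Mmp14: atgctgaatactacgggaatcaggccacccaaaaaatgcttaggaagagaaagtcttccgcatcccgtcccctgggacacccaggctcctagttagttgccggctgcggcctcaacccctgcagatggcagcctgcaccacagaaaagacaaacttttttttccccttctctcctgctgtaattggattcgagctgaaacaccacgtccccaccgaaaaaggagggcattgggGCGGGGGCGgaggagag
Mmp24: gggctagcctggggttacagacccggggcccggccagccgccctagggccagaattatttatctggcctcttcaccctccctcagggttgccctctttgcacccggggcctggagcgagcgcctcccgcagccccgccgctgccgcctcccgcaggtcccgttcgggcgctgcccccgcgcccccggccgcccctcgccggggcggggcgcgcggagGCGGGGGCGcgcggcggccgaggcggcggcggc
The capitals mark an AP-1 site (TGAGTCA) whose first base lies at -63 in Mmp10 and EGR sites (GCGGGGGCG) at -17 in Mmp14 and -33 in Mmp24, counted back from the start. Windows of 300 bases, 250 before the start and 50 from it on, were held by RefSeq for 27 of the 45 members, 30 windows in all. The AP-1 letters TGAGTCA or TGACTCA, read on both strands, were in 2 of these 30 windows (6.67%; Mmp10 and Adam19) and in 5.20% of 32851 windows of all genes. The CRE letters TGACGTCA, the same on both strands, were in 0 of 30 and in 1.79% of all. The EGR letters GCGGGGGCG, or CGCCCCCGC on the other strand, were in 4 of 30 (13.3%; Adamts14, Mmp11, Mmp14 and Mmp24) and in 2.91% of all; no motif contains another. The Adamts1 window held none of the 3. A match describes letters, not a bound site.

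**Figure D2:**
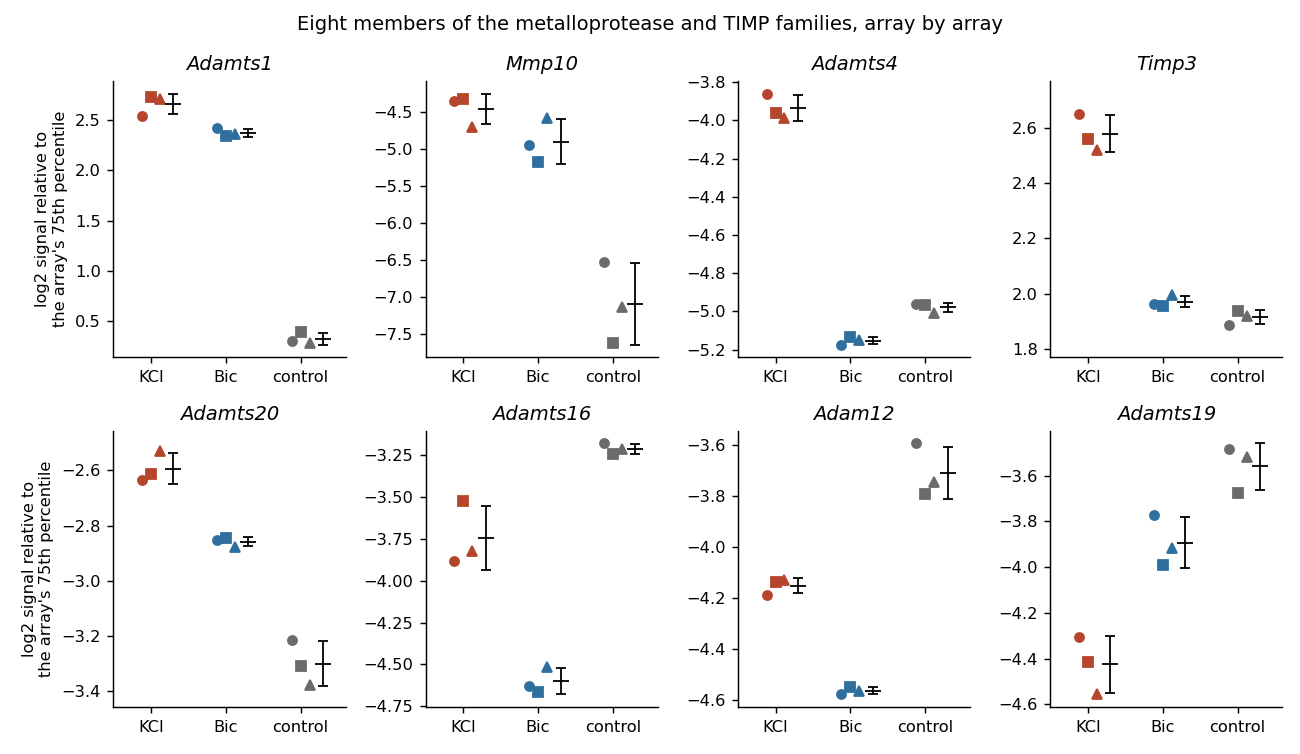
Level (y axis, log2 signal relative to the array's 75th percentile) of 8 members on each array, in KCl, Bic and control; circles, squares and triangles are replicates 1, 2 and 3, and the bar beside them gives the mean and SD of the 3. Adamts1 and Mmp10 are high in both stimulated groups, Adamts4 and Timp3 in KCl alone, and Adamts16 and Adam12 are lowest in Bic.

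Among the other proteoglycan-cleaving Adamts genes, Adamts5, Adamts8 and Adamts20 passed as higher in both stimulated groups and Adamts4 and Adamts9 in KCl. Adamts4, an aggrecanase, measured -3.86, -3.96 and -3.99 in KCl, -5.17, -5.13 and -5.15 in Bic and -4.96, -4.97 and -5.01 in control. The KCl arrays lay about 1 log2 unit above all others, and the Bic arrays lay just under the control arrays without overlap. Adamts4 was thus 2.06-fold higher in KCl than in control (1.04 ± 0.04, adjusted p = 2.0e-07) and 2.32-fold higher in KCl than in Bic (1.22 ± 0.04, adjusted p = 4.8e-07). Its fall of -0.17 ± 0.04 in Bic (adjusted p = 0.0076) was lost under quantile, spike-in and either normexp setting and with a trended prior.

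Adamts20, which cleaves versican, was graded over the groups with the scaling used here. Levels were -2.64, -2.61 and -2.53 in KCl, -2.85, -2.85 and -2.88 in Bic and -3.21, -3.31 and -3.38 in control, with no overlap between any 2 groups. The changes were 0.71 ± 0.05 in KCl (adjusted p = 4.4e-06) and 0.44 ± 0.05 in Bic (adjusted p = 1.9e-04). Both calls were lost after normexp with the 75th percentile. The step of 0.27 between KCl and Bic (adjusted p = 0.0017) was lost under quantile, median and spike-in scaling and both normexp settings. Adamts5, the other main aggrecanase, measured -1.77, -1.71 and -1.69 in KCl, -2.01, -2.00 and -2.01 in Bic and -2.27, -2.11 and -2.23 in control. Again the groups did not overlap, at 0.48 ± 0.04 in KCl (adjusted p = 2.8e-05) and 0.20 ± 0.04 in Bic (adjusted p = 0.0087). The KCl call against control passed under all 23 alternatives. The Bic call was lost under median scaling, spike-in scaling and normexp with the 75th percentile. So was the step of 0.29 between KCl and Bic (adjusted p = 8.1e-04). Adamts8 rose to about the same level in both, with means of 1.78 ± 0.03 in KCl, 1.76 ± 0.05 in Bic and 1.40 ± 0.02 in control, changes of 0.38 and 0.36, and a second probe at 0.33 and 0.29. The Adamts8 call in KCl was lost under spike-in scaling, and both its calls against control under normexp with the 75th percentile. Adamts9, which cleaves versican and aggrecan, changed by 0.24 in KCl (adjusted p = 6.3e-04) and by 0.02 in Bic (adjusted p = 0.78). Adamts15, another versican-cleaving enzyme, went the other way in KCl: it measured -1.10, -1.16 and -1.12 there, -0.58, -0.71 and -0.54 in Bic and -0.60, -0.55 and -0.57 in control. The KCl arrays were the lowest and Bic and control overlapped, at -0.56 ± 0.05 for KCl against control (adjusted p = 1.5e-05) and -0.52 ± 0.05 for KCl against Bic (adjusted p = 3.8e-05).

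Matrix substrates were counted from a list of 25 perineuronal net and matrix genes, 23 of them tested. In KCl 14 rose and 2 fell, with a median of 0.34 log2 units, where 35.8% of all genes were higher and 36% lower. In Bic 5 rose and 3 fell, with a median of -0.02, where 17.4% of all genes were higher and 27% lower. Aggrecan (Acan) measured 0.99, 0.87 and 0.80 in KCl, -0.04, -0.25 and -0.17 in Bic and -2.19, -2.00 and -2.03 in control. Its groups were stepped and apart, 2.96 ± 0.08 higher in KCl (adjusted p = 4.2e-08) and 1.92 ± 0.08 higher in Bic (adjusted p = 1.0e-06) than in control. Versican (Vcan) rose by 1.58 in KCl and 1.12 in Bic, whereas brevican (Bcan) changed by 0.02 in KCl (adjusted p = 0.64) and 0.01 in Bic (adjusted p = 0.81). Thbs2, a matrix thrombospondin, was 1.22 ± 0.12 higher in KCl (adjusted p = 3.6e-05) and is among the 14 counted as higher. It was well above background on 3 KCl, 2 Bic and 2 control arrays. Thbs2 was thus kept through KCl, in which it is high, so its rise was favoured by the choice of probes. Tenascin C (Tnc) was higher by 0.49 ± 0.06 in Bic (adjusted p = 2.5e-04).

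A further group of Adamts genes was lowest in one of the stimulated groups. Adamts16 measured -3.88, -3.53 and -3.82 in KCl, -4.63, -4.66 and -4.51 in Bic and -3.18, -3.24 and -3.22 in control. It had the largest fall of any kept member in Bic, to 0.383 of control (-1.39 ± 0.09, adjusted p = 1.2e-05); KCl lay between, at -0.53 ± 0.09 against control (adjusted p = 9.1e-04) and 0.86 ± 0.09 against Bic (adjusted p = 8.6e-05). Adamts18, a related protease, measured -2.23, -2.37 and -2.45 in KCl, -2.44, -2.75 and -2.37 in Bic and -1.90, -1.84 and -1.85 in control. Every stimulated array was below every control array, by -0.48 ± 0.10 in KCl (adjusted p = 0.0028) and -0.65 ± 0.10 in Bic (adjusted p = 0.0012), and KCl and Bic overlapped. Adamts19 was lowest in KCl, at -4.31, -4.41 and -4.56, with -3.77, -3.99 and -3.92 in Bic and -3.49, -3.67 and -3.52 in control. The 3 groups did not overlap, at -0.87 ± 0.08 for KCl (adjusted p = 3.6e-05) and -0.33 ± 0.08 for Bic (adjusted p = 0.014), and its second probe gave -1.05 and -0.34. After normexp with the 75th percentile the KCl change of Adamts16 was 0.47 and that of Adamts19 0.36, neither past the threshold.

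Among the procollagen N-proteinases, Adamts3, which also cleaves reelin in mouse brain, had 2 probes that disagreed. The brighter read -0.68, -0.75 and -0.75 in KCl, -0.49, -0.49 and -0.51 in Bic and -0.15, -0.20 and -0.21 in control, 3 separate groups, with changes of -0.54 ± 0.03 in KCl (adjusted p = 2.3e-06) and -0.31 ± 0.03 in Bic (adjusted p = 1.7e-04). The other probe gave 0.32 in KCl and 0.24 in Bic, neither past the threshold, so the direction of Adamts3 holds for 1 probe only. Adamts2 changed by -0.23 in KCl and -0.11 in Bic and did not pass. Adamts14 is given with the slides below. Of the remaining Adamts genes, Adamts7, which cleaves cartilage oligomeric matrix protein, rose by 0.44 ± 0.04 in KCl (adjusted p = 4.7e-05) while its second probe gave 0.05, and Adamts13, which cleaves von Willebrand factor, rose by 0.44 ± 0.05 (adjusted p = 7.7e-05), a call lost under quantile normalisation (0.20), spike-in scaling (0.21) and both normexp settings (1.13 and 0.083); in Bic they changed by -0.04 and 0.02 and did not pass. Adamts10, a partner of fibrillin microfibrils, measured -3.82, -3.44 and -3.64 in KCl, -4.26, -4.28 and -4.19 in Bic, and -4.17 and -4.01 in control. Control 3 was left out of its fit as an outlier spot. On that footing Adamts10 rose by 0.45 ± 0.11 in KCl (adjusted p = 0.0076) and was 0.61 ± 0.10 higher in KCl than in Bic (adjusted p = 0.0013); with that spot kept the KCl change was -0.17, without control 1 its adjusted p was 0.054, and its second probe gave 0.16.

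**Figure D3:**
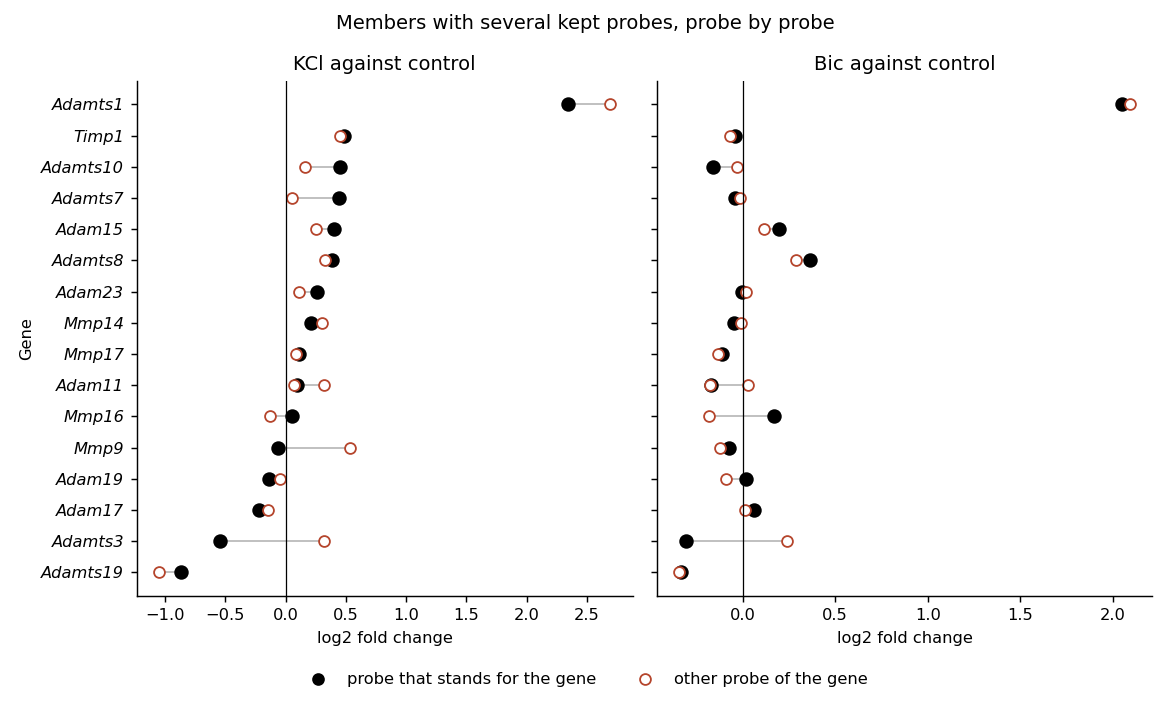
Log2 fold change (x axis) of each kept probe of the 16 members that have several, in KCl against control and Bic against control; filled points are the brightest probe, which stands for the gene, and open points the others. The 2 Adamts1 probes lie together near the right edge, whereas those of Adamts3 lie on opposite sides of 0 in both panels.

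The 5 kept membrane-type Mmp genes changed by at most 0.44 log2 units against control. Mmp24, a membrane-type enzyme found in neurons, measured 0.59, 0.66 and 0.83 in KCl, 0.44, 0.38 and 0.47 in Bic and 0.17, 0.32 and 0.28 in control. The groups did not overlap; KCl was 0.44 ± 0.07 above control (adjusted p = 5.6e-04), and the Bic change of 0.18 ± 0.07 did not pass (adjusted p = 0.068). Mmp14, the membrane-type enzyme that activates the Mmp2 precursor, measured 1.08, 1.12 and 0.98 in KCl, 0.77, 0.81 and 0.81 in Bic and 0.85, 0.78 and 0.90 in control. Only the KCl arrays stood apart, 0.21 ± 0.05 above control (adjusted p = 0.0038), a change of -0.01 under spike-in scaling. Mmp15 fell in both, by -0.28 ± 0.03 in KCl (adjusted p = 8.9e-05) and -0.25 ± 0.03 in Bic (adjusted p = 4.9e-04). Mmp16 was 0.17 ± 0.06 higher in Bic (adjusted p = 0.048), a call lost on leaving out any 1 of 7 arrays, all but KCl 1 and KCl 2 (adjusted p 0.050 to 0.14), and its second probe gave -0.18 in Bic and -0.13 in KCl, where the first gave 0.05 (adjusted p = 0.45). Mmp17, which a lipid anchor holds in the membrane, changed by 0.11 in KCl and -0.11 in Bic, neither past the threshold, and was 0.22 ± 0.05 higher in KCl than in Bic (adjusted p = 0.0034), a difference of -0.01 under spike-in scaling.

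Mmp23, a membrane-anchored Mmp, was the only member called higher in Bic than in control and lower in KCl than in Bic. It measured -4.11, -3.54 and -3.99 in KCl, -3.33, -3.55 and -3.33 in Bic and -3.98, -4.34 and -4.05 in control. Bic was above control without overlap (0.72 ± 0.16, adjusted p = 0.0073), and KCl 2 reached the Bic range. KCl was 0.48 lower than Bic (-0.48 ± 0.16, adjusted p = 0.030), lost without Bic 1, Bic 3, KCl 1 or KCl 3 (adjusted p 0.080 to 0.095), and 0.24 ± 0.16 above control without passing (adjusted p = 0.20). Mmp11, stromelysin-3, rose by 0.27 ± 0.06 in KCl (adjusted p = 0.0043), against a change of -0.09 in Bic that did not pass.

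Neither gelatinase passed against control with the scaling used here. Mmp2 measured -5.22, -5.10 and -5.13 in KCl, -5.67, -5.19 and -5.27 in Bic and -5.26, -5.44 and -5.29 in control, a difference of 0.18 ± 0.12 for KCl (adjusted p = 0.21) and -0.05 ± 0.12 for Bic (adjusted p = 0.78); the KCl difference passed without Bic 1 (adjusted p = 0.032) and when only the 6 arrays compared were fitted (adjusted p = 0.044). Mmp9, often studied in synaptic plasticity, measured -4.98, -4.94 and -5.04 in KCl, -5.04, -5.07 and -4.88 in Bic and -4.98, -4.95 and -4.85 in control. Its groups overlapped and its changes were -0.06 ± 0.06 (adjusted p = 0.37) and -0.07 ± 0.06 (adjusted p = 0.37), near the background of the array, with 2 of 3 KCl arrays well above it. A second Mmp9 probe gave 0.54 in KCl (adjusted p = 0.097), so the probes differ in sign. The first probe passed as lower in KCl under quantile (-0.43), median (-0.22) and spike-in scaling (-0.29), normexp with quantile normalisation (-0.10) and slide as a block (-0.13). Mmp3, Mmp7, Mmp8, Mmp12, Mmp13, Mmp19, Mmp20, Mmp21, Mmp25, Mmp28 and Mmp1a did not meet the rule for being kept; Mmp13 was well above background on 2 arrays, both KCl.

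Adam12, a membrane-anchored protease, was lower in both stimulated groups. It measured -4.19, -4.14 and -4.13 in KCl, -4.58, -4.55 and -4.57 in Bic and -3.60, -3.79 and -3.74 in control. The 3 groups were apart with Bic lowest, at -0.85 ± 0.05 in Bic (adjusted p = 7.7e-06) and -0.44 ± 0.05 in KCl (adjusted p = 9.5e-05). After normexp with the 75th percentile the KCl change was 0.59 and did not pass, and the Bic call was lost. The step of 0.41 between KCl and Bic (adjusted p = 2.2e-04) was lost under quantile and spike-in scaling and both normexp settings. Adam9 and Adam15, both broadly expressed, rose in KCl by 0.30 ± 0.05 (adjusted p = 9.7e-04) and 0.40 ± 0.06 (adjusted p = 2.9e-04). Their Bic changes were 0.15 ± 0.05 (adjusted p = 0.041) and 0.20 ± 0.06 (adjusted p = 0.022), and a second Adam15 probe gave 0.25 in KCl and 0.12 in Bic, the last not past the threshold. The Bic call of Adam9 was lost without any 1 of Bic 1, Bic 2, Bic 3, control 2, control 3 or KCl 3 (adjusted p 0.058 to 0.12), and that of Adam15 without Bic 1, Bic 3, control 2 or control 3 (adjusted p 0.056 to 0.071).

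Adam17, which releases tumour necrosis factor and ligands of the epidermal growth factor receptor, measured -0.97, -0.97 and -1.01 in KCl, -0.79, -0.62 and -0.71 in Bic and -0.69, -0.82 and -0.81 in control. The KCl arrays were the lowest, at -0.22 ± 0.05 against control (adjusted p = 0.0062), with a second probe at -0.15, and the Bic change of 0.06 ± 0.05 did not pass (adjusted p = 0.39). With slide as a block the KCl call was lost (adjusted p = 0.079). Adam19 fell by 0.14 in KCl (-0.14 ± 0.05, adjusted p = 0.023), lost without control 3, KCl 1 or KCl 3 (adjusted p 0.065 to 0.079), and its second probe gave -0.05. Adam8 changed by 0.32 ± 0.14 in KCl and -0.01 in Bic, and Adam33 by 0.15 and -0.52, none past the threshold against control. Adam33 measured -3.96, -3.58 and -4.22 in KCl, -4.79, -4.70 and -4.27 in Bic and -4.37, -3.63 and -4.20 in control. It was 0.67 ± 0.24 higher in KCl than in Bic (adjusted p = 0.039), with control spanning both, and lost that call without Bic 1, Bic 2, control 3, KCl 1 or KCl 2 (adjusted p 0.051 to 0.12).

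Adam11 and Adam23 lack a working catalytic site, and Adam23 is a neuronal receptor for the secreted protein Lgi1. Adam23 measured 0.10, 0.14 and 0.02 in KCl, -0.13, -0.19 and -0.21 in Bic and -0.20, -0.17 and -0.15 in control. KCl was above both others without overlap, 0.26 ± 0.04 above control (adjusted p = 5.0e-04), and Bic and control overlapped (-0.00 ± 0.04, adjusted p = 0.94); its second probe gave 0.11 in KCl. Adam11 was lower in Bic by 0.17 (-0.17 ± 0.05, adjusted p = 0.028), lost without Bic 2, Bic 3 or control 2 (adjusted p 0.052 to 0.090) and with the replicate block on the 6 arrays of Bic and control (adjusted p = 0.072), and did not pass in KCl (0.09 ± 0.05, adjusted p = 0.13). Its 2 other probes gave 0.07 and 0.32 in KCl and -0.18 and 0.03 in Bic. The third member of that trio, Adam22, had no array well above background.

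Several Adam genes known from testis and sperm were near the background of the arrays, and their probes may read near-identical copies. Adam18, Adam1b, Adam2, Adam4, Adam6a, Adam7, Adam24, Adam26a, Adam29, Adam30, Adam32 and Adam39, and of the Adamts family Adamts12, did not meet the rule for being kept. Adam1a, a part of fertilin, measured -4.09, -3.73 and -3.91 in KCl, -4.04, -4.18 and -4.20 in Bic and -3.41, -3.32 and -3.51 in control. All stimulated arrays were below all control arrays, by -0.50 ± 0.10 in KCl (adjusted p = 0.0019; 0.55 and not past the threshold after normexp with the 75th percentile) and -0.73 ± 0.10 in Bic (adjusted p = 5.3e-04). Adam21 was lower in KCl (-0.49 ± 0.13, adjusted p = 0.0087; 0.91 after the same normexp setting, not past it), and did not pass in Bic (-0.12 ± 0.13). Adam5 measured -7.00, -6.26 and -6.38 in KCl, -5.28, -5.73 and -5.78 in Bic and -6.15, -5.01 and -5.76 in control, and was well above background on 0 KCl, 3 Bic and 2 control arrays. It was thus kept through Bic alone, and a lower KCl level was favoured by that choice. It was at least 1.16-fold lower in KCl than in control and at least 1.2-fold lower than in Bic. The adjusted p-values of 0.030 and 0.028 belong to limma's fitted changes of -0.91 and -0.95 log2 units, not to these bounds. Without control 2, control 3 or KCl 1 the call against control was lost (adjusted p 0.050 to 0.098), and without Bic 1, Bic 2 or KCl 1 that against Bic (adjusted p 0.051 to 0.091).

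Timp3, the inhibitor that binds to matrix and blocks Adam17 and the aggrecanases, was the Timp gene that changed most. It measured 2.65, 2.56 and 2.52 in KCl, 1.96, 1.95 and 1.99 in Bic and 1.89, 1.94 and 1.92 in control. The KCl arrays stood above all others, 1.58-fold above control (0.66 ± 0.04, adjusted p = 1.9e-06) and 1.52-fold above Bic (0.61 ± 0.04, adjusted p = 6.7e-06), and both calls passed under all 23 alternatives. In Bic it changed by 0.06 ± 0.04 (adjusted p = 0.29). Timp1, a secreted inhibitor, measured -2.00, -1.98 and -2.31 in KCl, -2.78, -2.60 and -2.48 in Bic and -2.91, -2.31 and -2.53 in control. Its KCl and control arrays overlapped at the edge; the rise of 0.48 ± 0.16 in KCl (adjusted p = 0.027) was lost without control 1, KCl 1 or KCl 2 (adjusted p 0.072 to 0.082) and with slide as a block (adjusted p = 0.076), and its second probe gave 0.45 without passing (adjusted p = 0.19).

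Timp2, which binds Mmp14 and helps it activate the Mmp2 precursor, measured 5.61, 5.56 and 5.70 in KCl, 5.44, 5.31 and 5.32 in Bic and 5.52, 5.59 and 5.42 in control. It was 0.26 ± 0.06 higher in KCl than in Bic (adjusted p = 0.0054), a call lost under quantile, median and spike-in scaling and both normexp settings (0.0021 to 0.14), and did not pass against control in KCl (0.11 ± 0.06, adjusted p = 0.12) or Bic (-0.15 ± 0.06, adjusted p = 0.076). Quantile normalisation turned its KCl difference to -0.16 (adjusted p = 0.041), and quantile normalisation after normexp did too (-0.16, adjusted p = 0.021). Timp4 measured 0.36, 0.27 and 0.41 in KCl, 0.25, 0.24 and 0.33 in Bic and 0.31, 0.38 and 0.36 in control, with overlapping groups and changes of -0.01 ± 0.05 (adjusted p = 0.89) and -0.07 ± 0.05 (adjusted p = 0.23).

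Set directly against each other, KCl and Bic differed at an adjusted p under 0.05 in 31 members, of which 22 still passed with slide as a block. KCl had no array on slide 1, which held 2 of the 3 Bic arrays. The block ended the calls of Adam5, Adam9, Adam15, Adam19, Adam33, Adamts10, Mmp23, Mmp24 and Timp1 (adjusted p 0.052 to 0.16). The 23 that were higher in KCl than in Bic were led by Adamts4 (1.22), Adamts16 (0.86), Adam6b (0.71), Adam33 (0.67), Adamts10 (0.61) and Timp3 (0.61), and the 8 that were lower were Adam5, Adamts19, Adamts15, Mmp23, Adam21, Adam17, Adamts3 and Adam19, at -0.95 to -0.16. Adam9 (0.15) was higher here but at -0.08 under spike-in scaling, and Adam15 (0.21) at -0.02. Without Bic 1 the 8 lower calls became 4. In addition to those named, calls of this comparison were lost on leaving out 1 array for Adam19 (Bic 1 or KCl 3; adjusted p 0.053 to 0.057), Adam21 (Bic 1, Bic 3, KCl 1 or KCl 2; 0.092 to 0.10), Adam6b (Bic 1, Bic 2, control 2 or any KCl array; 0.054 to 0.12), Adam9 (any Bic array, control 3, KCl 1 or KCl 3; 0.051 to 0.11) and Timp1 (Bic 1, Bic 2, KCl 1 or KCl 2; 0.051 to 0.075).

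A few dim members followed the slide. Adam28 was 1.57 log2 units higher on the slide 2 control array than on the slide 1 control arrays, and Bic differed likewise by 1.25. Its levels were -4.63, -4.22 and -4.69 in KCl, -5.82, -5.73 and -4.52 in Bic and -6.18, -6.03 and -4.54 in control; KCl, which had no array on slide 1, was 1.07 ± 0.49 above control without passing (adjusted p = 0.084) and 0.11 above control within slide 2. Adamts14 measured -2.57, -2.33 and -2.93 in KCl, -3.60, -3.61 and -2.80 in Bic and -4.12, -3.73 and -2.88 in control. Here the slide 2 arrays of Bic and control reached the KCl range. Its KCl rise was 0.97 ± 0.35 (adjusted p = 0.036), 0.43 within slide 2 and 0.51 with slide as a block (adjusted p = 0.032); it was lost without control 1, control 2, KCl 1 or KCl 2 (adjusted p 0.082 to 0.12).

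Adam6b measured -3.20, -3.17 and -3.33 in KCl, -4.17, -4.15 and -3.51 in Bic and -4.53, -4.35 and -3.60 in control. The KCl arrays lay above all others, and Adam6b rose by 0.93 ± 0.26 in KCl (adjusted p = 0.012), by 0.42 within slide 2 and by 0.48 with slide as a block (adjusted p = 0.0035). Adam6a is a near-identical copy. Adam25 measured -5.41, -5.07 and -5.35 in KCl, -6.34, -6.82 and -5.64 in Bic and -7.42, -6.14 and -5.79 in control, with all 3 KCl, 1 Bic and 1 control array well above background. It was thus kept through KCl, the group in which it is high, so a difference in that direction was favoured by the choice of probes. The KCl arrays were the highest, and KCl was 1.17 ± 0.44 above control (adjusted p = 0.042), 0.55 within slide 2 and 0.56 with slide as a block (adjusted p = 0.31), and the call was lost without any 1 of Bic 1, control 1, control 2 or the KCl arrays (adjusted p 0.055 to 0.11). In Bic none of these 4 passed. Over all calls, all 18 changes in Bic kept their sign within slide 1 and within slide 2. All 32 KCl changes that slide 2 measures kept theirs, Adamts10 having no control array there, and all 31 of KCl against Bic did. These values reuse the arrays that made the calls, and groups without overlap keep their sign in any part of the arrays. That agreement is therefore no test of the slide. Slide as a block also ended the KCl calls of Adam5 (adjusted p = 0.15), Adam19 (adjusted p = 0.071) and Adamts10 (adjusted p = 0.13).

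**Figure D4:**
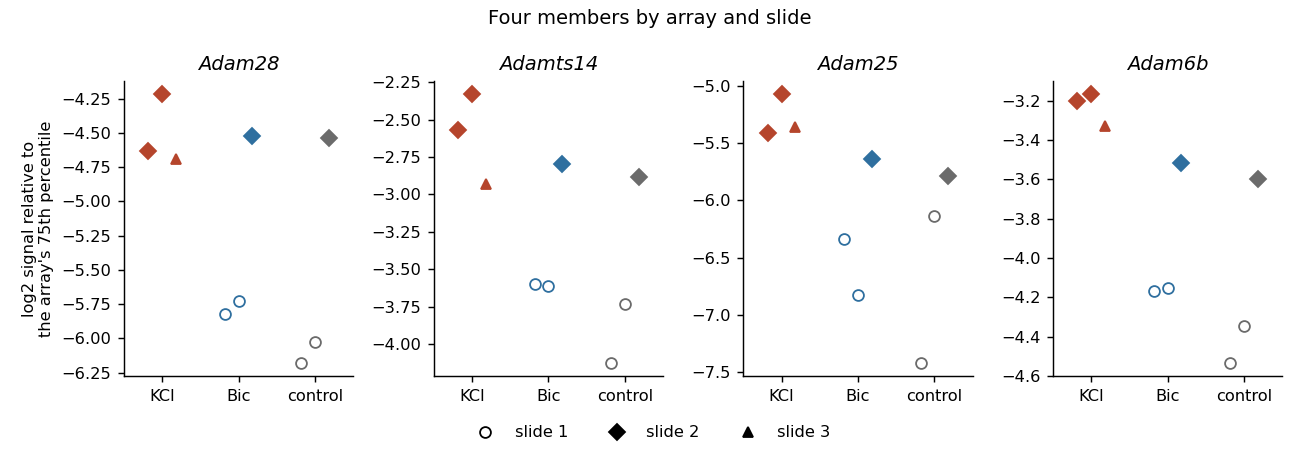
Level (y axis, log2 signal relative to the array's 75th percentile) of Adam28, Adamts14, Adam25 and Adam6b on each array in KCl, Bic and control, with open circles for slide 1, diamonds for slide 2 and triangles for slide 3. In Bic and in control the slide 2 array lies above both slide 1 arrays in each panel.

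Genes that act on or beside the 4 families were counted from lists, against the same backgrounds of 35.8% higher and 36% lower in KCl and 17.4% and 27% in Bic. Of 19 activators and regulators tested, 12 rose and 0 fell in KCl (median 0.19 log2 units) and 5 rose and 3 fell in Bic (median 0.01). The plasminogen activators had the largest changes of this list in KCl. Plau was well above background on 3 KCl, 1 Bic and 1 control array, and was 1.10 ± 0.15 higher in KCl (adjusted p = 2.7e-04) with a change of 0.08 in Bic (adjusted p = 0.71). Plau was thus kept through KCl, in which it is high, so its rise there was favoured by the choice of probes. It is among the 12 counted as higher. Plat rose by 0.67 ± 0.05 in KCl (adjusted p = 4.9e-06) and 0.46 ± 0.05 in Bic (adjusted p = 1.3e-04). Pcsk5, a proprotein convertase, rose by 0.46 ± 0.05 in KCl and 0.60 ± 0.05 in Bic (adjusted p = 1.1e-04 and 6.9e-05), and Rhbdf2, a regulator of Adam17, changed by -0.50 ± 0.35 in Bic (adjusted p = 0.29). Reck, a membrane-anchored Mmp inhibitor, rose by 0.29 ± 0.06 in KCl (adjusted p = 0.0017) and changed by -0.03 in Bic (adjusted p = 0.73). Of 12 other extracellular metalloproteases and Adamts-like genes, 6 rose and 2 fell in KCl (median 0.28) and 1 rose and 2 fell in Bic (median -0.01). Pappa, which cleaves insulin-like growth factor binding proteins, rose by 1.70 ± 0.06 in KCl (adjusted p = 1.3e-07), as did Mep1a by 0.71 ± 0.28 (adjusted p = 0.046) and Mme by 0.51 ± 0.14 (adjusted p = 0.013). In Bic, Phex rose by 0.96 ± 0.10 (adjusted p = 1.4e-04), Adamtsl2 fell by 0.67 (-0.67 ± 0.06, adjusted p = 9.3e-05) and Mme changed by -0.41 ± 0.14 (adjusted p = 0.053).

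Of 27 tested membrane proteins that Adam or Mmp enzymes release, 15 rose and 6 fell in KCl (median 0.15) and 7 rose and 4 fell in Bic (median 0.05), with the backgrounds as above. Ligands of the epidermal growth factor receptor family had the largest changes of the list. Areg measured -2.03, -2.03 and -1.98 in KCl, -2.28, -2.31 and -2.46 in Bic and -6.94, -7.80 and -7.49 in control. It was not well above background in control, which gives only a bound. On that bound Areg was at least 17.7-fold higher in KCl and at least 14.0-fold higher in Bic. The adjusted p-values of 1.4e-07 and 7.0e-07 belong to limma's fitted changes, not to these bounds. Areg was kept through the stimulated groups, in which it is high, so its rise was favoured by the choice of probes. It is among the genes counted as higher in both. Nrg1 rose by 2.01 ± 0.03 in KCl (adjusted p = 6.7e-09) and 0.82 ± 0.03 in Bic (adjusted p = 1.2e-06), and Hbegf by 1.19 ± 0.06 (adjusted p = 6.6e-07) and 0.73 ± 0.06 (adjusted p = 3.2e-05).

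Markers of other cells also moved in KCl. Of 11 vascular and fibroblast markers tested 7 rose and 1 fell, and their summed linear level was 45.4 to 50.0 in KCl, 26.0 to 28.4 in Bic and 26.4 to 27.6 in control, with Tagln up by 1.27. Of 9 oligodendrocyte markers 7 rose and 2 fell, with sums of 37.3 to 37.9 in KCl, 31.3 to 32.6 in Bic and 32.7 to 34.0 in control. Of 8 microglial markers 5 rose and 0 fell, with sums of 5.70 to 8.57 in KCl, 3.87 to 5.73 in Bic and 4.79 to 5.04 in control. Of 10 astrocyte markers 4 rose and 2 fell, with sums of 174 to 183, 153 to 156 and 153 to 166 in KCl, Bic and control. Of 10 neuronal markers 6 rose and 1 fell, with sums of 154 to 161, 142 to 152 and 145 to 154 in the same order, and all 4 cycling markers fell. In Bic 0 vascular markers were higher and 2 lower, 1 oligodendrocyte marker was higher and 5 lower, 0 microglial markers passed, 0 astrocyte markers were higher and 4 lower, 2 neuronal markers were higher and 3 lower, and 0 cycling markers were higher and 2 lower. These counts stand against 35.8% of all genes higher and 36% lower in KCl and 17.4% and 27% in Bic. Their part in the changes of the members was not tested.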

How the data were processed

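Cyanine 3-labelled RNA from 9 samples was hybridised to 1-colour Agilent mouse 4x44k arrays, per the labels. The deposited files are Feature Extraction output (10.7.3.1 per the file headers, 10.5.1.1 in the submitters' processing notes); the value used is the processed signal intensity, which per the file headers is background-subtracted. The series' value table equalled it on all 45018 features (0 differing). Flag columns of the deposited files (well above background, saturated, outlier) were used as they stand.

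Signal was divided by the array's 75th percentile over 43379 non-control spots and log2-transformed. Outlier spots were left out, spots of a probe averaged, and a gene was represented by its brightest probe kept. Probes were named through RefSeq transcripts in an annotation table of assembly GRCm38.p6, which named 26888 of 41174 probes (18327 genes); 14286 had no symbol. A probe was kept if some group had it flagged well above background on all 3 arrays and each group measured it on 2 or more. Of 25 members not kept, 15 were well above background on 0 arrays and 10 on 1 to 4; Adam10 had no matched probe and is not analysed here. limma 3.58.1 (R 4.3.3) fitted all 9 arrays with group as the only term over 14057 genes, with Benjamini-Hochberg adjustment over all of them and a threshold of 0.05; errors on changes are limma's. The fit was tested on simulated data. Residual degrees of freedom were 6 and the prior added 1.76; the number of arrays limits the precision.

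Values on every array are given for the 8 kept members with the largest absolute change among those called in each comparison, for the Timp genes, and for Mmp2, Mmp9, Mmp14, Mmp24, Adam17, Adam23, Adamts1 and Adamts4; Adamts3, Adamts5, Adamts15 and Adam28 were added after their values were seen. Members, lists and tests were chosen with earlier results of these data known. Protein sequences were not used here. Whether replicate numbers pair the arrays was checked from correlations of deviations from the group means over all genes. Same-numbered Bic and control arrays lie on the same slide and correlated at 0.26 to 0.74 (3 pairs). Within slide 1, Bic 1 correlated at 0.40 with control 1 and 0.16 with control 2, and Bic 2 at 0.33 and 0.26. The numbers are thus not shown to pair the arrays apart from the slide. Bic against control was also fitted on those 6 arrays with the replicate number as a block, chosen after seeing the data. Slide was added as a fixed and a random block and as within-slide values, the last 2 chosen after seeing the data; the other alternatives are in the closing section.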

Additional observations from a re-analysis of the deposited data

How the results depend on the processing

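Each comparison was repeated under 23 alternatives, and Bic against control under 24. Of the member values, 919 for KCl against control, 999 for Bic against control and 890 for KCl against Bic kept direction and side of the threshold. 77, 64 and 113 lost a call, 23, 11 and 15 gained one, and 11, 1 and 12 turned sign. The cause was not tested.

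Counts of calls that moved were these. In KCl against control, all genes higher numbered 2938 under median scaling, 2200 under spike-in scaling and 1834 under normexp with the 75th percentile, where 2316 were lower. Members there numbered 9 higher under spike-in scaling, and 8 higher and 1 lower under normexp. In Bic against control, 1577 genes were higher under median scaling, 1249 higher and 1260 lower under spike-in scaling, and 484 and 338 under normexp. Members higher numbered 5 under median scaling, 5 (and 4 lower) under spike-in scaling, and 1 (and 0 lower) under normexp. In KCl against Bic, 2500, 1283 and 1099 genes were higher under those 3 settings, 1340 lower under normexp, members higher were 11, 6 and 6, and members lower were 0 under normexp and 5 with slide as a block. Leaving out each array in turn gave 4 to 8 members lower and 19 to 24 higher in KCl against Bic, 17 to 22 higher and 10 to 13 lower in KCl against control, and 6 to 9 higher and 8 to 10 lower in Bic against control. Spike-in scaling, which rests on 7 spike probes, kept 21 of 33, 9 of 18 and 14 of 31 member calls. It ended the calls of KCl against control of Adam9, Adam15, Adam23, Adamts7, Adamts8, Adamts9, Adamts10, Adamts13, Mmp11, Mmp14, Mmp24 and Timp1.

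These values turned sign. For KCl against control, normexp with the 75th percentile gave Adam12 0.59, Adam19 0.26, Adam1a 0.55, Adam21 0.91, Adam5 1.01, Adamts16 0.47 and Adamts19 0.36; Adamts10 was -0.17 with outlier spots kept, Mmp14 -0.012 with spike-ins, and Timp2 -0.16 under quantile normalisation with or without normexp. For KCl against Bic, that normexp setting gave Adam19 0.21, Adam21 0.98, Adam5 1.04, Adamts19 0.64, Mmp23 0.52 and Adam9 -0.080. Spike-in scaling gave Adam15 -0.020, Adam9 -0.080 and Mmp17 -0.0063; quantile normalisation gave Adam9 -0.0011 and Mmp9 -0.31, and with normexp Adam9 -0.046. For Bic against control, Mmp16 was -0.0073 as the mean of its probes.

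With replicate number as a block on all 9 arrays, 32 of 33 member calls passed in KCl against control, 17 of 18 in Bic against control and 30 of 31 in KCl against Bic. Adam19 (adjusted p = 0.051), Adam11 (adjusted p = 0.056) and Mmp23 (adjusted p = 0.066) were the calls lost. The block on the 6 arrays of Bic and control, whose same-numbered arrays share a slide, changed no call but that of Adam11. KCl arrays share only a number with the others: same-numbered arrays correlated at -0.57 to -0.15 with control and -0.57 to -0.087 with Bic. Slide as a random block had a correlation of 0.0032. Dim probes limit what can be seen: 5 of the 45 members, Adam5, Adam25, Adam28, Mmp9 and Mmp10, were not well above background on every array.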
